A study of Sorghum bicolor with 16 samples.

Results

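The genes described here are those of developing sorghum endosperm whose level was close to equal in the waxy mutant and the wild type at 6 and 11 days post anthesis (DPA) and differed in the same direction at 16 and 21 DPA. The difference d was the log2 of the mutant mean plus 1 FPKM minus the log2 of the wild-type mean plus 1 FPKM at 1 age, where FPKM is the number of sequenced fragments scaled by gene length and by the mapped fragments of the library. A gene was kept when d lay within 0.3 of 0 at 6 and at 11 DPA, when d had the same sign at 16 and 21 DPA, and when its mean over the 8 libraries of 16 and 21 DPA was at least 5 FPKM. The genes kept were ranked by the smaller absolute d of the late ages, and the first 60 were taken, out of 34129 genes in the table. Of these 60 genes, 45 were higher and 15 were lower in the mutant at the late ages. The genes were thus selected on the mean FPKM of both genotypes at all 4 ages, so these values are given as a description and carry no test.

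Endosperm was dissected from seeds of an EMS mutant line, homozygous for the allele wxe, and of its parent BTx623, called WT, at 6, 11, 16 and 21 DPA, with 2 replicates in each of the 8 groups. The allele wxe is a stop codon in GBSSI (Sobic.010G022600), which encodes granule-bound starch synthase I. EMS is a chemical mutagen that leaves further mutations in the line, so a difference between wxe and WT is a difference between lines, and those mutations cannot be told apart from the allele. Each replicate pooled seeds from the middle of 3 panicles. In whole endosperm, fewer cells of a type and less RNA per cell cannot be told apart.

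The endosperm is the storage tissue of the cereal grain. Its cells first divide and enlarge, and then fill with starch granules and with protein bodies packed with kafirins, the prolamins of sorghum, before the tissue dries. GBSSI makes the linear starch polymer amylose inside the granule, and a grain without it is called waxy because its starch is nearly all the branched polymer amylopectin. The later ages belong to the filling phase, when storage protein and starch genes take a large part of the transcripts. The table gives gene IDs without names, and none of the 60 IDs matched the annotation used here, so the genes are described by ID, level and course, with no function.

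GBSSI itself was lower in wxe than in WT at every age and is no gene of the set. Its level at 21 DPA was 3919.7 and 4888 FPKM in wxe, against 8807 and 8599 FPKM in WT. All 9 genes used as endosperm markers, among them SBEIIb, a kafirin gene and a pair of globulin genes, were above 0 FPKM in all 16 libraries. The lowest value was 0.236 FPKM, in the globulin gene Sobic.001G144900. Markers of other seed tissues could not be looked up, so the presence of those tissues was not tested. The files give no read counts. A relative depth was read from the commonest ratio between libraries among genes below 0.1 FPKM, a ratio shared by 18.1% to 31.7% of those genes. Relative to the first WT replicate at 6 DPA, it was 0.914 to 1.02 at 6 DPA, 0.503 to 0.629 at 11 DPA and 0.398 to 0.503 at 16 and 21 DPA. This ratio reads sequencing depth only where FPKM was scaled by mapped fragments alone. Any further scaling between libraries would enter it as well, and that was not tested. The estimate was below that of 6 DPA both at 11 DPA, where the genes were selected to be close to equal, and at the late ages. Over the 9471 genes with a late mean of at least 5 FPKM, the median of d was -0.07, 0.02, -0.02 and -0.0046 at 6, 11, 16 and 21 DPA, close to 0 at each age.

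Of those 9471 genes, 3356 (35.4%) met the early limit at both 6 and 11 DPA. Among these, 2243 had the same sign at 16 and 21 DPA, 1040 higher and 1203 lower in wxe, a share of 46.4% higher. In the top 60 the share higher was 75.0%. When the early limit was dropped, 417 genes had late differences of the same sign at least as large as that of the gene at rank 60, and 284 of them were higher and 133 lower in wxe. Of the 417, 60 (14.4%) met the early limit at both ages, 108 met it at 6 DPA alone, 58 at 11 DPA alone and 191 at neither age, and 27 were at least 0.3 away from 0 at both early ages in the late direction. The share that met it at both ages was 14.4%, beside 35.4% of all 9471 genes. Missing it at 6 or 11 DPA was thus the commoner case among all genes too. An early difference in either direction counts here, and the gap between the shares was not tested. The limit of the set cut through a continuous series of values. Just inside it, Sobic.004G030900 had d of -0.58 at 16 DPA and -0.41 at 21 DPA, Sobic.006G227500 had 0.40 and 1.25, and Sobic.003G200200 had -0.40 and -0.43. Just outside it, Sobic.005G028900 had 0.40 at 16 DPA and 0.83 at 21 DPA, Sobic.010G114700 had 0.39 and 0.97, and Sobic.003G303700 had 0.39 and 0.56.

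**Figure D1:**
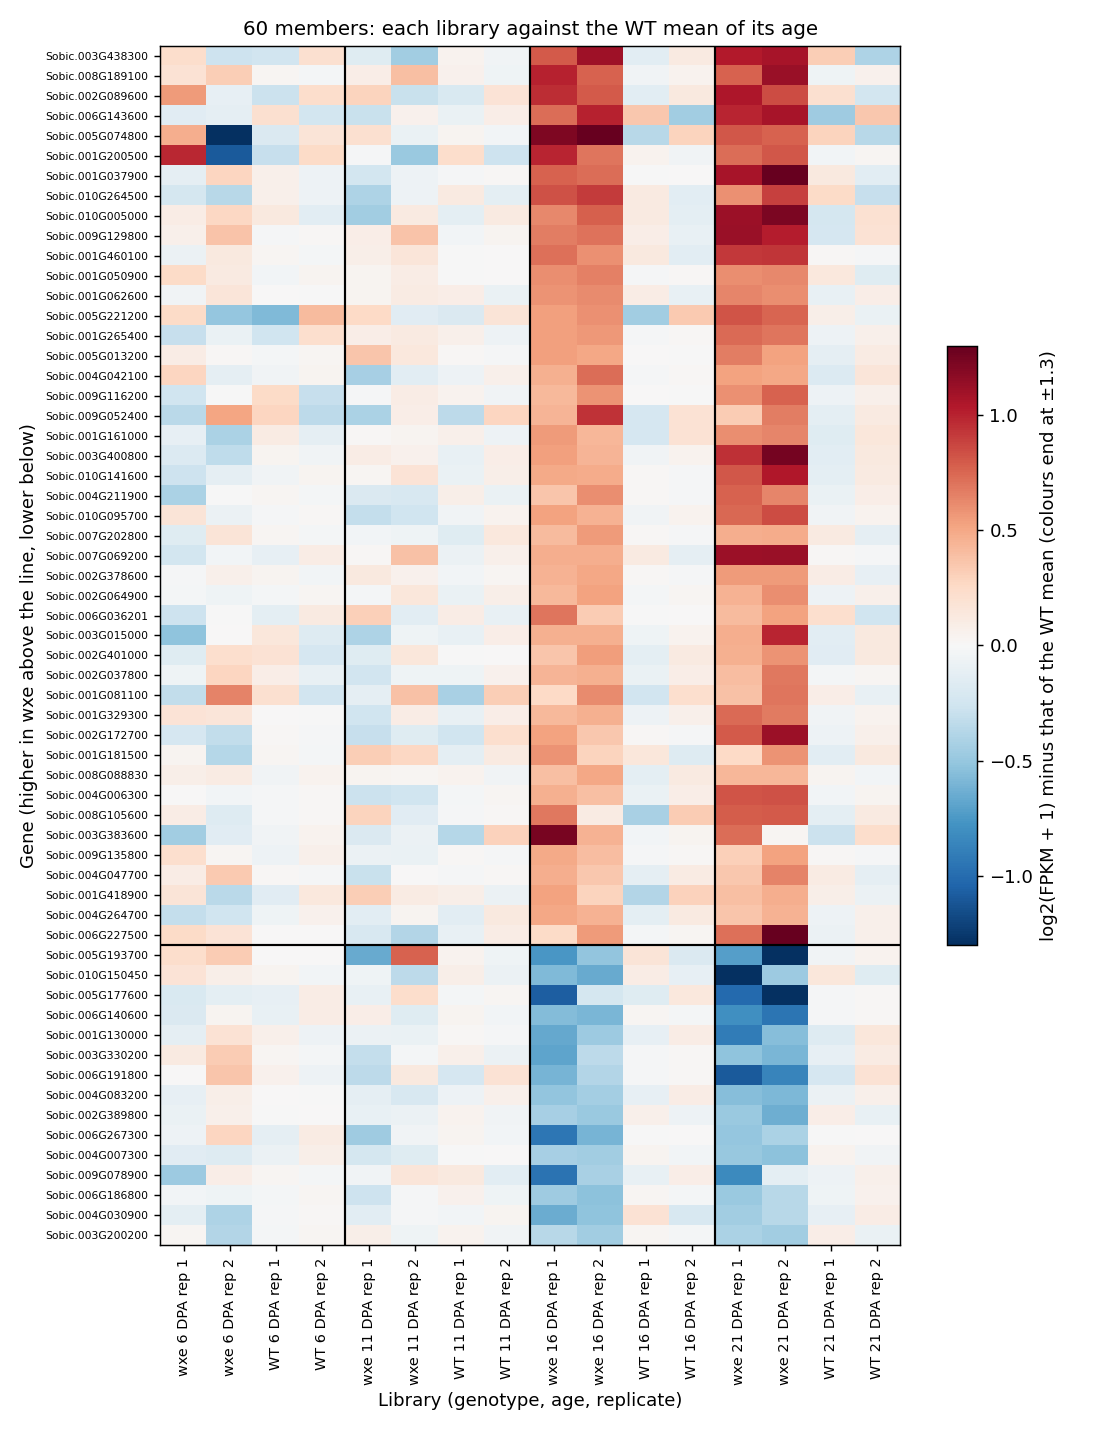
Level of each of the 60 genes (rows) in each of the 16 libraries (columns, wxe left of WT at each age). Values are log2(FPKM + 1) minus log2 of the WT mean + 1 FPKM of the same age. The 45 genes higher in wxe are above the 15 lower ones. The rule held the means of wxe and WT close at 6 and 11 DPA and apart at 16 and 21 DPA. Single libraries can differ at the early ages too. The libraries of the genotypes are without overlap in 21 of the 60 genes at 6 DPA and in 22 at 11 DPA.

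The 45 genes higher in wxe had a median d of 0.01, 0.03, 0.49 and 0.71 at 6, 11, 16 and 21 DPA. Their median ratio of wxe to WT mean FPKM was 1.46 at 16 DPA and 1.69 at 21 DPA, and 14 of them were at least 1.5-fold higher at both late ages. At 16 DPA both wxe libraries lay above both WT libraries in 43 of the 45 genes, and at 21 DPA in 44. Over all 9471 genes, the wxe libraries lay above the WT libraries in 25.2% at 16 DPA and in 27.3% at 21 DPA. The rule selected for these differences, and nothing is read from the excess. Both late ages were without overlap in 42 of the 45, beside 13.3% of all genes. Counted in either direction, the libraries were apart in 58 of the 60 genes at 16 DPA and in 59 at 21 DPA, beside 56.4% of all genes at each age. The 15 genes lower in wxe had a median d of -0.01, -0.09, -0.57 and -0.56 at 6, 11, 16 and 21 DPA. Their median ratio was 0.652 at 16 DPA and 0.664 at 21 DPA. All 15 had both wxe libraries below both WT libraries at 16 DPA and at 21 DPA, beside 31.2% of all genes at 16 DPA, 29.1% at 21 DPA and 15.2% at both. The late difference was larger at 21 than at 16 DPA in 32 of the 45 higher genes and in 11 of the 15 lower ones.

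The 3 genes that overlapped at a late age were all among the higher ones and lay near the end of the ranking. They were singled out after their values were seen. Sobic.008G105600 had 4.83 and 2.90 FPKM in wxe, against 1.70 and 3.56 FPKM in WT at 16 DPA, and its libraries were apart at 21 DPA, with 9.87 and 9.97 FPKM in wxe against 4.77 and 5.86 in WT. Sobic.001G418900 overlapped at 16 DPA through 1 WT library, with 16.3 and 13.7 FPKM in wxe, against 8.21 and 13.9 FPKM in WT. In Sobic.003G383600 the overlap was at 21 DPA, with 12.2 and 7.11 FPKM in wxe, against 5.57 and 8.37 FPKM in WT. At the early ages, 21 of the 60 genes were without overlap in either direction at 6 DPA, beside 65.2% of all 9471 genes, and 22 at 11 DPA, beside 68.5%. These early gaps pointed in the late direction in 11 genes at 6 DPA and in 14 at 11 DPA, and in the opposite direction in 10 and 8 genes. Among those with a gap in the late direction at both early ages were Sobic.008G189100, Sobic.009G129800, Sobic.001G050900 and Sobic.004G007300. The rule itself limits d at these ages.

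**Figure D2:**
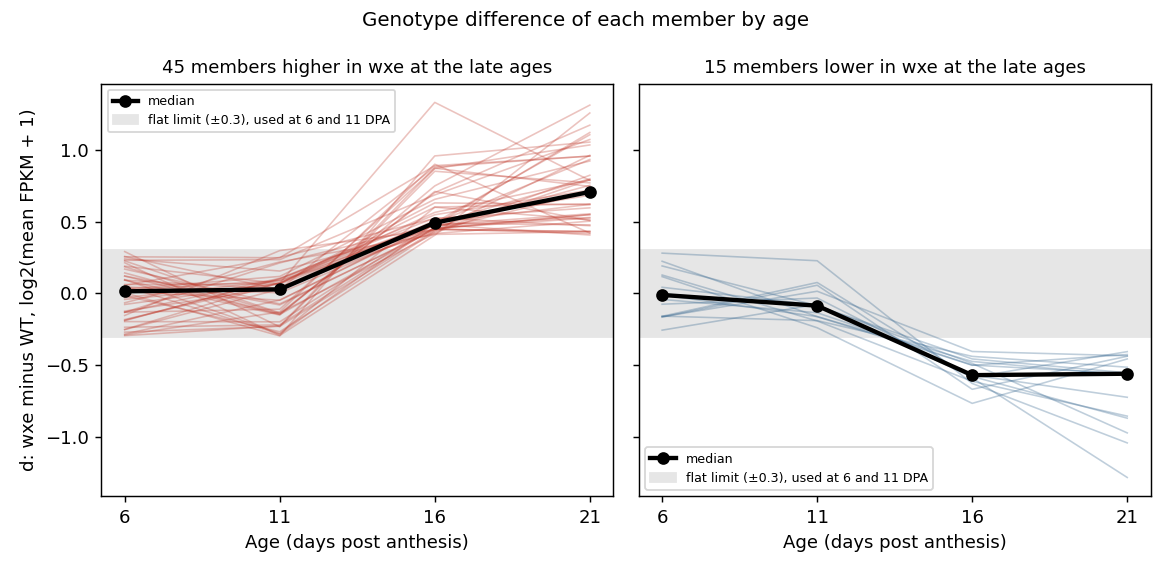
Difference d (log2 of the wxe mean + 1 FPKM minus log2 of the WT mean + 1 FPKM) of each of the 60 genes at 6, 11, 16 and 21 DPA, one line per gene, with the medians of the 45 higher and the 15 lower genes. The medians lie within 0.1 of 0 at 6 and 11 DPA and reach 0.71 and -0.56 at 21 DPA; the limit of 0.3 at the early ages and the split at the late ages were imposed by the rule.

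The 45 higher genes had no common course with age. In WT the highest mean fell at 6 DPA in 16 of them, at 11 DPA in 15, at 16 DPA in 1 and at 21 DPA in 13. Over the 9471 genes these shares were 27.1%, 17.4%, 21.6% and 33.9% in the same order of ages, and the direction of the late difference bears on the WT maximum through the rule. The set thus held genes at their highest in young endosperm and genes at their highest in filling endosperm. The age of the highest mean was the same in both genotypes in 37 of the 45.

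The gene that ranked first, Sobic.003G438300, belonged to the early group. It had 108 and 76.5 FPKM in wxe, against 77.5 and 107 FPKM in WT, at 6 DPA, and 18.2 and 14.6 FPKM in wxe against 21.1 and 19.6 in WT at 11 DPA. At 16 DPA it had 21.8 and 27.00 FPKM in wxe, against 10.9 and 13.2 FPKM in WT, and at 21 DPA 36.8 and 37.8 FPKM in wxe against 21.98 and 12.9 in WT. Both genotypes were thus low at 11 DPA after a high start, and the later mean was 2.02 times that of WT at 16 DPA and 2.14 times at 21 DPA. Sobic.002G089600 was among the most abundant genes of the early group, with 953 and 603 FPKM in wxe, against 538 and 764 FPKM in WT, at 6 DPA. Its level at 11 DPA was 217 and 144 FPKM in wxe against 154 and 200.1 in WT. At 16 DPA the values were 83.9 and 74.6 FPKM in wxe against 38.8 and 46.5 in WT, and at 21 DPA 59.6 and 51.4 FPKM in wxe against 32.6 and 23.6 in WT. The libraries of the genotypes overlapped at 6 and 11 DPA and were apart at both late ages, when the level of the gene was lower in both.

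Sobic.005G074800 had the largest d of the set at 16 DPA, 1.33, with 17.2 and 20.1 FPKM in wxe, against 5.11 and 8.53 FPKM in WT. At 21 DPA it had 14.2 and 13.8 FPKM in wxe, against 9.61 and 5.79 FPKM in WT. Its libraries at 6 DPA did not agree, at 61.3 and 15.7 FPKM in wxe, against 38.4 and 49.3 FPKM in WT, so that its small early d of -0.18 came from a mean of unlike wxe replicates. Sobic.010G005000 was a gene of low level at the end, with 10.5 and 11.7 FPKM in wxe, against 7.08 and 5.78 FPKM in WT at 16 DPA and 3.57 and 3.94 FPKM in wxe against 0.806 and 1.42 in WT at 21 DPA. At 6 DPA it had had 54.98 and 62.04 FPKM in wxe against 55.99 and 46.7 in WT, and at 11 DPA 31.4 and 47.4 FPKM in wxe against 39.8 and 47.3 in WT. The late difference of this gene was that the lower level at 16 and 21 DPA was less low in wxe, and with a pseudocount of 0.1 in place of 1 its d at 21 DPA was 1.67 in place of 1.17.

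Sobic.009G129800 and Sobic.001G460100 had flatter courses. Sobic.009G129800 averaged 23.00 ± 0.572 FPKM in wxe and 13.9 ± 1.34 FPKM in WT (SD, n = 2 each) at 16 DPA, and 23.9 ± 1.29 FPKM in wxe and 10.8 ± 2.34 FPKM in WT (SD, n = 2 each) at 21 DPA. At 6 DPA it had had 24.2 and 30.2 FPKM in wxe against 22.7 and 23.3 in WT, so that the WT libraries of 21 DPA were below those of 6 DPA by more than the wxe ones were. At 11 DPA it had 17.1 and 21.0 FPKM in wxe against 15.6 and 16.4 in WT, so its libraries were apart at both early ages too. Sobic.001G460100 had 14.3 and 13.1 FPKM in wxe, against 9.19 and 7.54 FPKM in WT, at 16 DPA. At 21 DPA it had 10.9 and 11.05 FPKM in wxe against 5.41 and 5.25 in WT, replicates that differed by less than 0.2 FPKM. Sobic.001G050900 was lower at each later age in both genotypes, with 169 and 154 FPKM in wxe against 138 and 144 in WT at 6 DPA and 62.3 and 64.95 FPKM in wxe against 60.4 and 60.8 in WT at 11 DPA. It had 31.01 and 32.3 FPKM in wxe, against 19.9 and 20.4 FPKM in WT, at 16 DPA, and 26.6 and 26.99 FPKM in wxe against 18.95 and 15.3 in WT at 21 DPA. The ratio of means of this gene was 1.57 at 16 DPA and 1.57 at 21 DPA, nearly the same at both late ages.

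Among the genes with their WT maximum at 11 DPA, Sobic.006G143600 ranked highest. It had 106 and 135 FPKM in wxe, against 122 and 138 FPKM in WT, at 11 DPA, 41.3 and 50.1 FPKM in wxe against 31.5 and 17.6 in WT at 16 DPA and 29.9 and 31.8 FPKM in wxe against 10.3 and 18.8 in WT at 21 DPA. The WT replicates were unlike at both late ages, and the wxe libraries were above both of them. Sobic.001G200500 had 99.7 and 71.9 FPKM in wxe, against 118 and 83.6 FPKM in WT, at 11 DPA, 59.6 and 48.2 FPKM in wxe against 30.4 and 28.4 in WT at 16 DPA and 77.7 and 82.5 FPKM in wxe against 45.6 and 47.6 in WT at 21 DPA. As with Sobic.005G074800, its 6 DPA libraries in wxe were unlike, at 42.4 and 9.26 FPKM in wxe against 16.8 and 25.04 in WT. Its late wxe libraries were above both WT libraries, and the ratio of means was 1.83 at 16 DPA and 1.72 at 21 DPA.

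Sobic.001G037900 had the largest d of the set at 21 DPA, 1.31. It had 27.3 and 36.1 FPKM in wxe, against 31.1 and 28.4 FPKM in WT, at 6 DPA, and 32.9 and 37.1 FPKM in wxe against 38.5 and 39.4 in WT at 11 DPA. Its level was 21.7 and 21.04 FPKM in wxe against 12.2 and 12.4 in WT at 16 DPA and 12.9 and 17.9 FPKM in wxe against 6.19 and 5.003 in WT at 21 DPA. Both genotypes were lower at the late ages, and wxe was 2.74 times WT at the last. Sobic.010G264500 peaked at different ages in the genotypes. It had 21.4 and 27.3 FPKM in wxe, against 31.2 and 26.2 FPKM in WT, at 11 DPA, and 27.1 and 28.9 FPKM in wxe against 16.2 and 13.5 in WT at 16 DPA, so that its highest mean came at 16 DPA in wxe and at 11 DPA in WT. At 21 DPA it had 8.87 and 11.1 FPKM in wxe against 6.77 and 4.35 in WT.

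The 13 genes with their WT maximum at 21 DPA were higher in wxe as the level of the gene itself was highest, and in 12 of them the wxe maximum was at 21 DPA as well. Sobic.008G189100, at rank 2, had 17.7 and 19.5 FPKM in wxe, against 15.7 and 15.1 FPKM in WT, at 6 DPA, and 30.4 and 37.9 FPKM in wxe against 29.7 and 27.5 in WT at 11 DPA. Its level was 68.4 and 58.3 FPKM in wxe against 32.7 and 34.8 in WT at 16 DPA and 80.1 and 102 FPKM in wxe against 44.6 and 48.5 in WT at 21 DPA. At 16 DPA the wxe level was already above that of WT at 21 DPA. The most abundant gene of the set, Sobic.004G006300, had 1097 and 1114 FPKM in wxe, against 1306 and 1354 FPKM in WT, at 11 DPA, where WT was above wxe. At 16 DPA it had 1942 and 1849.9 FPKM in wxe, against 1322 and 1492 FPKM in WT, and at 21 DPA 2911 and 2929.7 FPKM in wxe against 1616 and 1688 in WT. This gene depended on how libraries were scaled to each other, since quantile normalization gave a d of 0.12 in place of 0.43 at 16 DPA and 0.70 in place of 0.82 at 21 DPA.

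Other abundant genes of this late group, named after their values were seen, followed a similar course. Sobic.001G329300 had 565 and 580.3 FPKM in wxe, against 403 and 441 FPKM in WT, at 16 DPA, and 807 and 774 FPKM in wxe against 468 and 501 in WT at 21 DPA. With quantile normalization its d was 0.24 in place of 0.44 at 16 DPA and 0.41 in place of 0.71 at 21 DPA. Sobic.010G095700 had 346 and 330.0 FPKM in wxe, against 233 and 249 FPKM in WT, at 16 DPA, and 576 and 619.9 FPKM in wxe against 332 and 355 in WT at 21 DPA. Sobic.004G211900 was at 114 and 135 FPKM in wxe against 89.4 and 87.3 in WT at 16 DPA and at 516 and 471 FPKM in wxe against 284 and 321 in WT at 21 DPA. The gene in the row before it, Sobic.004G211866, was listed at 0 in every library except the wxe libraries of 21 DPA, where it had 499 and 580.2 FPKM, and whether the gene models share reads was not tested. At lower levels, Sobic.001G062600 had 3.31 and 3.96 FPKM in wxe, against 3.46 and 3.43 FPKM in WT, at 6 DPA, and 10.01 and 10.6 FPKM in wxe against 10.4 and 9.12 in WT at 11 DPA. It had 14.5 and 14.9 FPKM in wxe, against 10.05 and 8.65 FPKM in WT, at 16 DPA, and 27.8 and 27.1 FPKM in wxe against 16.3 and 18.6 in WT at 21 DPA. The genotypes overlapped at both early ages. Sobic.006G227500 was close to 0 early, with 0.124 and 0 FPKM in wxe against 0.215 and 0.387 in WT at 11 DPA, and then had 3.16 and 4.13 FPKM in wxe against 2.44 and 2.58 in WT at 16 DPA and 22.9 and 44.4 FPKM in wxe against 12.8 and 14.2 in WT at 21 DPA. Its wxe replicates at 21 DPA differed by more than the means of wxe and WT did.

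**Figure D3:**
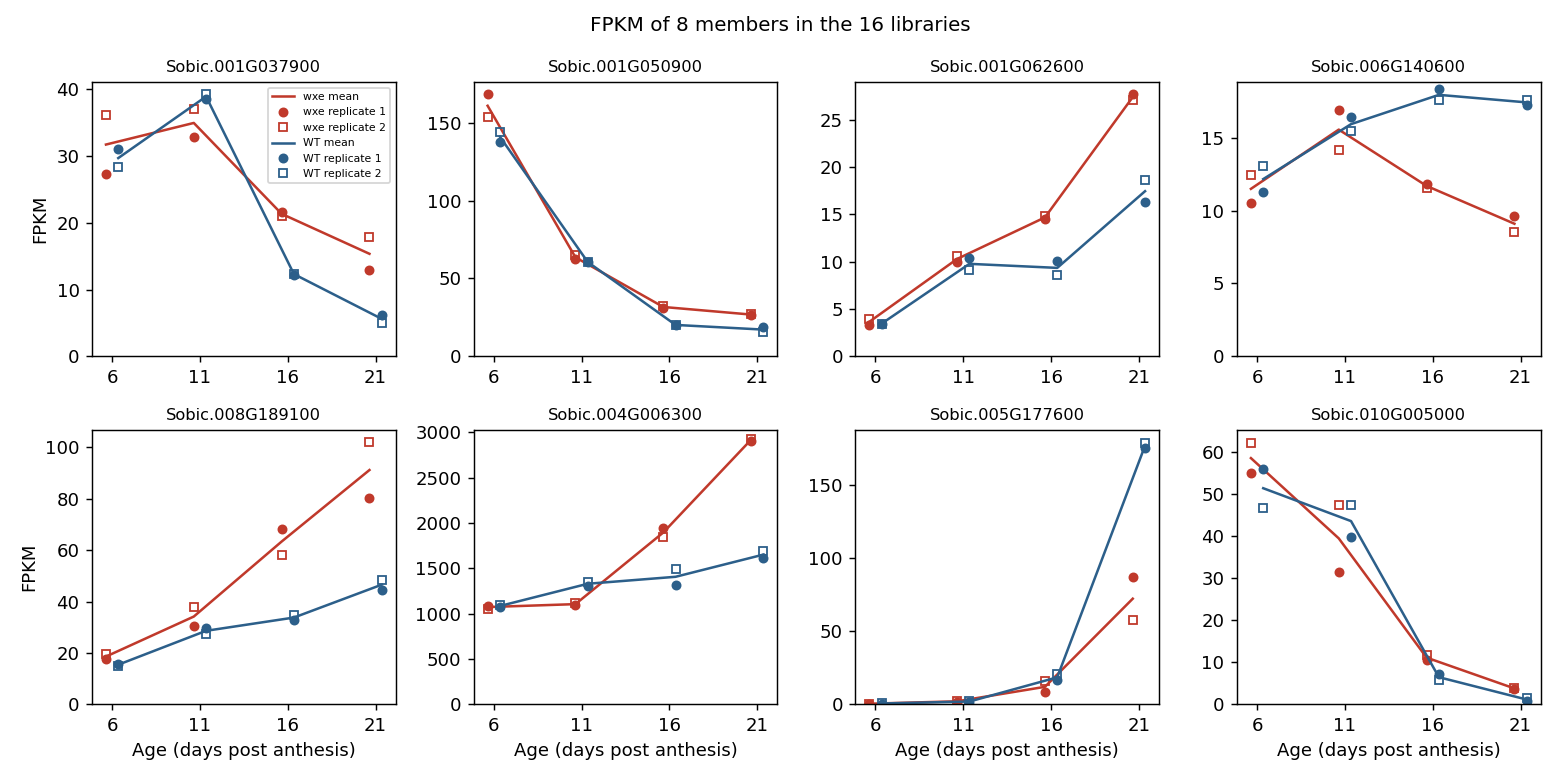
FPKM of 8 of the genes against age in DPA, with a point for each library and a line through the means of the 2 replicates, wxe and WT in separate colours. The lines of the genotypes are within 0.3 of each other in d at 6 and 11 DPA, with WT above wxe at 11 DPA in Sobic.004G006300, and at 16 and 21 DPA wxe is above WT in genes such as Sobic.001G062600 and below it in Sobic.005G177600.

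Among the 15 genes lower in wxe, the WT maximum was mostly late. Of the 15, 10 had their highest WT mean at 21 DPA, 4 at 16 DPA and 1 at 6 DPA, beside 33.9%, 21.6% and 27.1% of the 9471 genes. In wxe the highest mean of 6 of the 15 was at 21 DPA, while 5 were highest at 6 DPA, 2 at 11 DPA and 2 at 16 DPA. The age of the highest mean was the same in both genotypes in 7 of the 15, against 44 of all 60 genes and 63.7% of the 9471 genes. The rule fixes the direction of the late difference, so this contrast with the higher genes is a description. The median late mean was 16.7 FPKM, against 18.3 FPKM for the higher genes, and the highest was 112 FPKM, against 1969 FPKM.

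The lower gene of highest rank, Sobic.005G193700, was near 0 at 6 DPA, with 0.173 and 0.255 FPKM in wxe, against 0 and 0 FPKM in WT. It had 23.5 and 64.98 FPKM in wxe, against 39.01 and 36.3 FPKM in WT, at 11 DPA, where the wxe replicates lay on either side of WT. At 16 DPA it had 82.8 and 98.4 FPKM in wxe against 158 and 123 in WT, and at 21 DPA 88.6 and 52.8 FPKM in wxe against 142 and 151 in WT. The ratio of means was 0.645 at 16 DPA and 0.483 at 21 DPA. Sobic.005G177600 had the largest d of the lower genes, -1.28, at 21 DPA. It was at 0.320 and 0.384 FPKM in wxe against 0.401 and 0.619 in WT at 6 DPA and at 1.68 and 2.34 FPKM in wxe against 1.81 and 1.89 in WT at 11 DPA. Its level then reached 8.28 and 15.6 FPKM in wxe against 16.4 and 20.5 in WT at 16 DPA and 87.3 and 57.4 FPKM in wxe against 176 and 179 in WT at 21 DPA, and both wxe libraries were below both WT libraries at each of these ages.

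Sobic.006G140600 had close replicates at the late ages. Its level was 10.5 and 12.5 FPKM in wxe against 11.3 and 13.1 in WT at 6 DPA and 16.9 and 14.2 FPKM in wxe against 16.4 and 15.5 in WT at 11 DPA. It had 11.8 and 11.6 FPKM in wxe, against 18.3 and 17.6 FPKM in WT, at 16 DPA, and 9.64 and 8.57 FPKM in wxe against 17.3 and 17.6 in WT at 21 DPA. In WT the level stayed near that of 16 DPA, and in wxe it was below its own 11 DPA level. Sobic.010G150450 had 11.3 and 10.6 FPKM in wxe, against 18.5 and 16.03 FPKM in WT, at 16 DPA, and 9.07 and 17.8 FPKM in wxe against 27.9 and 22.4 in WT at 21 DPA, where its wxe replicates were unlike. Sobic.006G191800 was the lower gene with its WT maximum at 6 DPA. It had 147 and 188 FPKM in wxe, against 152 and 140.2 FPKM in WT, at 6 DPA, and 67.2 and 93.2 FPKM in wxe against 72.8 and 97.5 in WT at 11 DPA. At 16 DPA the values were 38.7 and 45.2 FPKM in wxe against 58.4 and 60.03 in WT, and at 21 DPA 25.6 and 30.5 FPKM in wxe against 48.1 and 63.8 in WT. Mean levels of this gene were lower at each later age in both lines, and both wxe libraries were below both WT libraries at 16 and at 21 DPA.

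Sobic.001G130000 dipped at 11 DPA in both lines, to 1.94 and 1.93 FPKM in wxe against 2.14 and 2.06 in WT, and had 5.75 and 6.71 FPKM in wxe against 8.95 and 10.5 in WT at 16 DPA and 3.05 and 4.19 FPKM in wxe against 5.81 and 7.44 in WT at 21 DPA. Sobic.003G330200 had 6.33 and 8.32 FPKM in wxe, against 10.6 and 10.9 FPKM in WT, at 16 DPA, and 7.81 and 7.34 FPKM in wxe against 10.7 and 12.6 in WT at 21 DPA. In Sobic.004G083200 the level was higher with age in both lines, with 21.8 and 23.00 FPKM in wxe against 29.3 and 33.7 in WT at 16 DPA and 26.8 and 26.3 FPKM in wxe against 37.9 and 41.9 in WT at 21 DPA. In these 3 genes both wxe libraries lay below both WT libraries at each late age.

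Sobic.002G389800 had 9.60 and 9.28 FPKM in wxe, against 13.9 and 12.7 FPKM in WT, at 16 DPA, and 12.7 and 11.3 FPKM in wxe against 19.3 and 16.9 in WT at 21 DPA. Sobic.006G267300 had the most negative d of the lower genes at 16 DPA, -0.77, with 11.9 and 15.3 FPKM in wxe, against 23.8 and 23.9 FPKM in WT. At 21 DPA it had 17.3 and 18.5 FPKM in wxe against 24.8 and 25.02 in WT. Sobic.004G007300 was nearly level with age in wxe, with mean values of 71.9, 77.1, 72.96 and 70.7 FPKM at 6, 11, 16 and 21 DPA, against 80.3, 88.1, 99.2 and 101 FPKM in WT. Compared with 11 DPA, its late means were higher in WT and somewhat lower in wxe. Both wxe libraries were below both WT libraries at all 4 ages, with d of -0.16 at 6 DPA and -0.19 at 11 DPA. Sobic.009G078900 was the least expressed of the lower genes, with 2.65 and 4.29 FPKM in wxe against 5.66 and 6.53 in WT at 16 DPA and 3.10 and 5.63 FPKM in wxe against 5.93 and 6.60 in WT at 21 DPA. The remaining 3 lower genes were Sobic.006G186800, with 8.39 and 7.96 FPKM in wxe against 12.2 and 11.7 in WT at 16 DPA, and Sobic.004G030900 and Sobic.003G200200, whose differences are given above.

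The step between 11 and 16 DPA is where the rule parts the genotypes, so it was described and not tested. Among the 45 higher genes, the median log2 change of the mean from 11 to 16 DPA was -0.15 in wxe and -0.71 in WT. In 24 of them the mean was lower at 16 than at 11 DPA in both genotypes, in 12 it was higher in both, and in 9 it was higher in wxe and lower in WT. The higher genes were thus more often lower at 16 than at 11 DPA in both genotypes, by less in wxe, than higher in both. Among the 15 lower genes the median change was 0.03 in wxe and 0.43 in WT. In 9 of them the mean was higher at 16 DPA in both genotypes, in 1 it was lower in both, and in 5 it was lower in wxe and higher in WT. From 16 to 21 DPA the median change of the higher genes was 0.05 in wxe and 0.0042 in WT, with genes going both ways, since the mean was higher at 21 DPA in both genotypes in 19 of the 45 and lower in both in 18. The lower genes had medians of 0.07 in wxe and 0.06 in WT at this step.

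**Figure D4:**
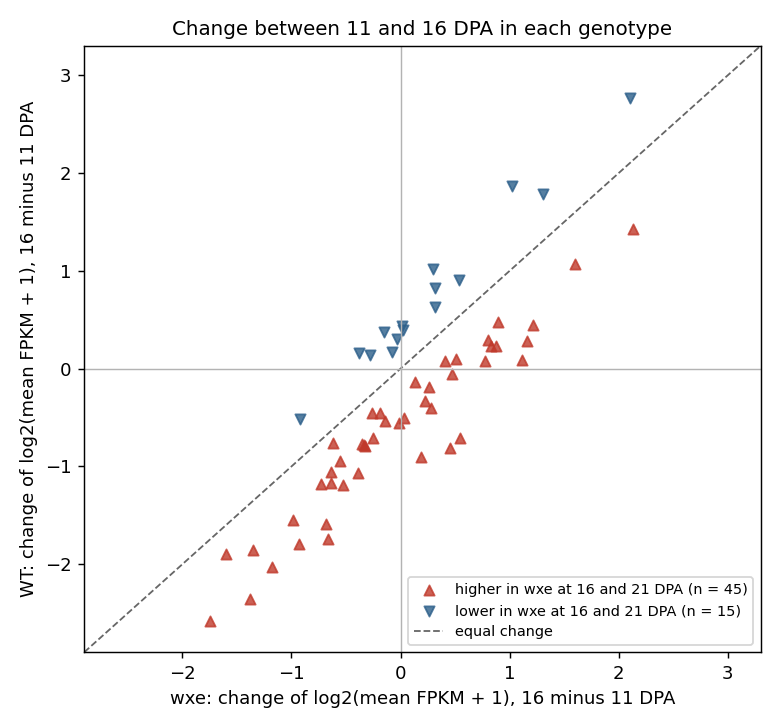
Log2 change of the mean (FPKM + 1) from 11 to 16 DPA in wxe (horizontal axis) against that in WT (vertical axis), one point for each of the 60 genes, with the diagonal of equal change. Higher genes lie below the diagonal and lower genes above it, as the rule requires, and most of the higher genes lie where both changes are negative.

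The rule used the difference between genotypes and the late mean and no change with age, but the changes with age come from the same group means and are not independent of it. They were tested across all genes with limma on log2(FPKM + 1). Calls needed an adjusted p under 0.05 with a log2 change of 0.58 or more in either direction. From 6 to 11 DPA in wxe, 19 of the 59 genes tested rose and 10 fell, beside 19.1% of all tested genes that rose and 28.3% that fell. In WT, 14 of 59 rose and 9 fell, beside 19.6% and 21% of all genes. These backgrounds hold genes that the late minimum of 5 FPKM keeps out of the set, among them genes lost early, so the shares are not compared. Of the genes called at this step, 14 rose and 9 fell in both genotypes. In wxe alone 5 rose and 1 fell, and none was called in WT alone or in opposite directions. The early limit on d bounds how far the changes from 6 to 11 DPA can differ between genotypes, without making them equal. In Sobic.005G074800 the log2 change was -1.17 in wxe and -1.70 in WT. Sobic.005G193700 rose most, by 5.05 (SE 0.35, adjusted p = 1.41e-07) in wxe and by 5.27 (SE 0.35, adjusted p = 1.08e-07) in WT. Sobic.003G438300 fell most, with a log2 change of -2.41 (SE 0.24, adjusted p = 2.60e-06) in wxe and -2.11 (SE 0.24, adjusted p = 9.74e-06) in WT. Sobic.006G227500 did not reach 1 FPKM at either early age and was not tested.

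From 16 to 21 DPA, 11 of the 60 genes rose and 4 fell in wxe, beside 10.4% and 8.7% of all tested genes. In WT, 9 rose and 6 fell, beside 11.3% and 10.1%. These backgrounds too hold genes that the late minimum of 5 FPKM keeps out of the set, so the shares are not compared. All 9 genes that rose in WT also rose in wxe, and of the falls 3 were shared. Of the 11 that rose in wxe, 10 were among the higher genes, which are 45 of the 60, and the remaining gene was the lower gene Sobic.005G177600. This gene rose by 2.53 (SE 0.25, adjusted p = 1.78e-05) in wxe and by 3.20 (SE 0.25, adjusted p = 3.47e-06) in WT. The largest rise in wxe was that of Sobic.006G227500, 2.83 (SE 0.23, adjusted p = 5.10e-06), with 2.05 (SE 0.23, adjusted p = 4.32e-05) in WT. Sobic.004G211900 rose by 1.98 (SE 0.13, adjusted p = 1.38e-06) in wxe and by 1.76 (SE 0.13, adjusted p = 3.24e-06) in WT. Sobic.010G264500 had the largest fall in wxe, a log2 change of -1.41 (SE 0.18, adjusted p = 1.27e-04), with -1.29 (SE 0.18, adjusted p = 1.91e-04) in WT. Sobic.010G005000 had the largest fall in WT, -1.82 (SE 0.19, adjusted p = 2.87e-05), with -1.34 (SE 0.19, adjusted p = 2.77e-04) in wxe.

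The 3 genes that fell in WT and were not called in wxe at this step were Sobic.001G037900, Sobic.007G069200 and Sobic.010G141600, the last pair named after their values were seen. Sobic.001G037900 changed by -1.02 (SE 0.16, adjusted p = 3.57e-04) in WT, and its change in wxe was -0.47 (SE 0.16, adjusted p = 0.035). Sobic.007G069200 had 127 and 127 FPKM in wxe, against 98.6 and 83.7 FPKM in WT, at 16 DPA, and 113 and 113 FPKM in wxe against 51.9 and 51.1 in WT at 21 DPA. Its WT change was -0.81 (SE 0.13, adjusted p = 5.33e-04), and its wxe change -0.17 (SE 0.13, adjusted p = 0.34). Sobic.010G141600 had 48.7 and 48.6 FPKM in wxe, against 34.6 and 34.1 FPKM in WT, at 16 DPA, and 37.1 and 43.8 FPKM in wxe against 18.9 and 22.6 in WT at 21 DPA, a WT change of -0.71 (SE 0.11, adjusted p = 5.03e-04) and a wxe change of -0.26 (SE 0.11, adjusted p = 0.0895). Whether the changes differed between genotypes was not tested, since that difference is part of the rule. Without 1 library, the second wxe replicate at 16 DPA or the first at 21 DPA, the number of falls in wxe was 2 in place of 4.

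In the 60 genes, the wxe replicates were less alike than the WT replicates at 6 and 11 DPA and more alike at 16 and 21 DPA. Over the 60 genes the median absolute log2 difference between replicates was 0.23, 0.21, 0.12 and 0.12 in wxe at 6, 11, 16 and 21 DPA, and 0.08, 0.13, 0.15 and 0.19 in WT. The same medians over all 9471 genes were 0.21 in wxe and 0.10 in WT at 6 DPA, and 0.18 and 0.11 at 11 DPA. They were 0.092 in wxe and 0.107 in WT at 16 DPA, and 0.136 and 0.145 at 21 DPA. The late gap between the genotypes was thus smaller over all genes than in the 60. At 6 DPA the replicate differences ran in opposite directions in the genotypes: over the 60 genes, the difference of replicate 1 minus replicate 2 in wxe and in WT had r = -0.60, and over all 9471 genes r = -0.31, a description over genes that share their libraries. At 11, 16 and 21 DPA r over the 60 genes was 0.21, -0.02 and -0.04. An abundant example, chosen after its values were seen, was Sobic.005G221200, with 1405 and 836 FPKM in wxe, against 792 and 1573 FPKM in WT, at 6 DPA. Sobic.009G052400 ran the other way, with 114 and 207 FPKM in wxe, against 176 and 114 FPKM in WT, at 6 DPA. In both genes the genotype means were close while each genotype's replicates were not, so the early equality of some of the genes is an equality of means over unlike libraries. A ratio of at least 2 between the wxe replicates at 6 DPA was found in 2 of the 60 genes, Sobic.005G074800 and Sobic.001G200500, beside 3.06% of all genes.

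The genes were spread over the genome. By the chromosome number in the gene ID, 12 lay on chromosome 1 (20% of the set, 19.4% of the 9471 genes), 7 on chromosome 2, 6 on 3, 8 on 4, 5 on 5, 7 on 6, 2 on 7, 3 on 8, 5 on 9 and 5 on 10. Chromosome 5 held 8.33% of the set and 4.70% of the 9471 genes, a gap of few genes. No pair of the genes stood within 10 places of each other in the order of gene IDs. The closest pair, Sobic.004G006300 and Sobic.004G007300, were 13 places apart and differed from WT in opposite directions, the first higher and the other lower in wxe. The next pair, Sobic.006G140600 and Sobic.006G143600, were 35 places apart and also in opposite directions.

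None of the 60 genes was among the genes that the study itself names by ID for starch synthesis, sugar supply, transcription factors, fatty acids or large-effect mutations of the line, nor among the endosperm genes used as markers, 38 genes in all. Of the 28 of those genes with a late mean of at least 5 FPKM, 0 met the early limit at 6 DPA and 8 met it at 11 DPA, and the smallest absolute d at 6 DPA was 0.44. The study chose most of these genes on the same libraries, so their count says nothing independent. For large-effect mutations of the line, only the 4 genes that the study names in its text were listed. The further mutated genes that it reports without naming them there were not compared with the 60 genes. The median d of the 8 starch genes was 0.23 at 16 DPA and 0.26 at 21 DPA, that of the 9 sugar supply genes was -0.0016 and 0.06, and that of the 12 transcription factor genes was 0.07 and 0.02. For the 2 fatty acid genes it was 0.39 and 0.66, and for the 4 genes with large-effect mutations it was -0.72 and -0.84. A late mean of at least 5 FPKM was reached by 6 of the 8 starch genes, 4 of the 9 sugar supply genes and 11 of the 12 transcription factor genes. It was reached by 1 of the fatty acid genes and by 3 of the genes with large-effect mutations. With its pseudocount of 1, d understates the difference in genes at lower levels.

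The set itself depended on its limits. Rebuilt with an early limit of 0.2 in place of 0.3, the top 60 shared 34 genes with it, with an early limit of 0.4 they shared 36, and with a late mean of at least 1 FPKM in place of 5 they shared 26. Without 1 of the 16 libraries, the rebuilt list shared 41 to 52 genes. Only 4 genes were in the list under all 24 alternatives, the higher genes Sobic.001G037900, Sobic.001G050900 and Sobic.001G062600 and the lower gene Sobic.006G140600. With 2 libraries against 2, an exact permutation test cannot go below p = 0.333, and no single gene could pass a threshold in such a test.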

How the data were processed

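RNA sequencing of dissected endosperm was deposited by the authors as FPKM per gene and library for 16 libraries, 8 groups of 2. The submitters' processing notes name FastQC, Trimmomatic, STAR and Cufflinks, and the study names the version 3 sorghum genome. Tool versions, the annotation release and the treatment of reads that align to several places are not given in the sources used here. FPKM are relative, so a few abundant storage protein genes affect the scale of the others, and no read counts are in the table, so no counting error is given.

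Members and lists were chosen with earlier results of these data known. The genotype difference was computed on group means with a pseudocount of 1 and not tested. Changes with age inside a genotype were tested with limma 3.58.1 in R 4.3.3 on log2(FPKM + 1), in 1 model of the 8 groups with 8 residual degrees of freedom, moderated along the trend with mean level, two-sided and with Benjamini-Hochberg adjustment over the genes whose mean passed 1 FPKM at 1 or both of the ages. A log2 fold change on this scale understates the change of genes with low values. The fit was tested on simulated data. The labels do not say that replicates came from separate plants beyond pooled panicles, so p-values measure the spread between these samples.

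Named are the 12 highest ranked higher and lower genes, ranks 58 to 63, the largest age changes, neighbours and GBSSI. Others were chosen after their values were seen. Of 34129 gene IDs, 0 matched the RefSeq table used here, so the lists by product name and the promoter motifs that had been planned were not run, and no sequence is shown. Alternatives were another pseudocount, scaling, filters and limits, the replicate block, and leaving out each library in turn.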

Additional observations from a re-analysis of the deposited data

Results flagged for a closer look

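Leaving aside the step from 11 to 16 DPA, where the rule itself parts the genotypes, a pair of the 60 genes moved in opposite directions in the genotypes between neighbouring ages, with no overlap between the libraries of these ages in either genotype. In both cases the difference was not tested.

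Sobic.003G400800, one of the higher genes, had 206 and 252 FPKM at 21 DPA and 202 and 189 FPKM at 16 DPA in wxe, a log2 change of 0.23. In WT it had 96.5 and 116 FPKM at 21 DPA and 134 and 143 FPKM at 16 DPA, a log2 change of -0.38. The changes of wxe and WT differed by 0.61. The rule used the libraries of both ages, so this is a description.

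Sobic.006G227500 was below 1 FPKM in all 8 libraries of 6 and 11 DPA. Its log2 change between these ages was -0.13 in wxe and 0.38 in WT, a difference of -0.51 at levels near the limit of detection.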

How the results depend on the processing

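The 60 genes are a selection near its own limits. With an early limit of 0.2 the rebuilt list shared 34 genes with the set and had 23 lower genes in place of 15, with a limit of 0.4 it shared 36 genes, and with a late mean of at least 1 FPKM it shared 26. Leaving out a library in turn gave 41 to 52 shared genes, and the whole rebuilt lists held 39 to 48 higher and 12 to 21 lower genes. Under the other settings (a pseudocount of 0.1, a late mean of at least 10 FPKM, means of logs, median-ratio and quantile scaling) 44 to 57 genes were shared. The cause of these changes was not tested beyond the limits themselves. No late d of the 60 genes changed sign under another pseudocount, scaling or averaging or without a library. The rule picked large late differences, and 57 of the 60 genes were without overlap at both late ages. In those 57, another pseudocount or average or a missing library cannot reverse the sign. Of the late d values under these settings, 18 moved by more than the spread between replicates and 942 did not. Leaving out 1 of 2 replicates can hardly move a value beyond that spread, so this count does not measure stability.

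The falls from 16 to 21 DPA in wxe numbered 2 to 5 when a library was left out, against 4 with all libraries. Other counts of age calls stayed within 1.5 times. The replicate numbers were not taken to pair the samples, because no label says that they do and the correlation of deviations between same-numbered samples was over 0.1 in 15 of 28 pairs of groups, not in all, with a range of -0.31 to 0.45. Shared handling of some same-numbered samples was not tested. With the replicate block the counts were unchanged, at 19 rises and 10 falls in wxe and 14 and 9 in WT from 6 to 11 DPA, and at 11 and 4 in wxe and 9 and 6 in WT from 16 to 21 DPA. The relative depth estimated from low values was lowest at the late ages, at 0.398 to 0.503 times that of the first WT library at 6 DPA. No read counts were at hand to check this estimate, and a scaling of the values between libraries would move it as well. Having 2 libraries in each group limits every value.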
